A study of Homo sapiens with 8 samples.

Results

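Translation initiation and elongation factors are the proteins that load messenger RNA and the initiator tRNA onto the ribosome and then drive it from codon to codon. Their messages were taken here as every gene whose symbol starts with EIF or EEF and whose RPKM (a read density scaled to transcript length and library size) averaged at least 1 over the 8 libraries. This gave 63 of the 64 genes with such symbols, out of 19124 genes in all. The member just inside the threshold was EIF5AL1, with a mean of 4.58 RPKM, and the gene just outside it was EIF4E1B, with 0.755 RPKM. A Y-linked member is counted below without its level, which leaves 62 members with values.

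The study lowered 3 proteins of the large (60S) ribosomal subunit by siRNA in 2 established human colorectal cancer cell lines, HCT116 and HT29. The groups were HCT116 cells given RPL9, RPL17 or RPL27 siRNA, each set against HCT116 cells given a negative control siRNA (NC), and HT29 cells given RPL9, RPL17 or RPL27 siRNA, each set against HT29 cells given NC siRNA. All cells were lipofected with 15 nM siRNA, and total RNA was taken after 48 h. There was 1 library per line and siRNA, so comparisons of siRNAs take the 2 lines as replicates, comparisons of lines take the 3 RPL siRNAs as replicates, and the RPL siRNAs of a line share its NC library.

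Initiation begins when eIF2 carries the initiator tRNA to the small ribosomal subunit, where eIF1, eIF1A, eIF3 and eIF5 are bound. The eIF4 factors bring the capped message, eIF5B joins the large subunit, and eEF1A and eEF2 then deliver aminoacyl-tRNAs and move the ribosome along. eIF6 sits on the large subunit, takes part in its maturation and keeps it from joining too early, and the messages of several elongation factors and of eIF4B carry a 5' terminal oligopyrimidine (TOP) start, as do those of ribosomal proteins, through which mTOR signalling controls their translation.

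The targeted gene stood at 31.9%, 38.5% and 26.7% of NC for RPL9, RPL17 and RPL27 in HCT116, and at 14.7%, 18.7% and 13.7% in HT29. The HT29 NC values of these genes were high. RPL9 had 35729 RPKM under NC there, but 17619 and 17546 under RPL17 and RPL27 siRNA and 5245 under its own. In HCT116 the same values were 17432, 18619, 18823 and 5560 RPKM. The lower percentages in HT29 therefore do not show a stronger knockdown. RPL27 was also lower under RPL17 siRNA, at 4723 RPKM against 7649 under NC in HCT116 and at 4754 RPKM against 16205 under NC in HT29. Under RPL9 siRNA RPL27 had 9280 RPKM in HCT116 and 10530 in HT29. The epithelial markers EPCAM, KRT8, KRT18 and CDH1 were present at 268 RPKM or more in all 8 libraries, KRT20 and VIL1 were at 358 RPKM or more in HT29 and at most 16.3 RPKM in HCT116, and CDX2 and CDH17 were at most 18.8 RPKM in both lines. Of the fibroblast, leukocyte and endothelial markers, COL1A1 (252 to 437 RPKM) and CD68 (32.2 to 84.4 RPKM) were present throughout, CD3E stood at 8.03 RPKM in HT29 RPL27 and at 0 in the others, and the rest were at most 6.58 RPKM. The HT29 NC library stood apart: across 10434 genes of at least 20 RPKM, its deviation from the others' median correlated with transcript length at -0.61 (Spearman, over genes), where no other library exceeded 0.17. In it the tenth of shortest transcripts was 0.69 higher and the tenth of longest 1.44 lower on the log2 scale (medians). For members that the results turn on, values that rest on this library are given also with each library's length trend removed or with the library left out. The RPKMs add up as if exon values had been summed gene by gene, and levels below are compared between libraries and never between genes. The depth was about 20.7 to 26.5 M reads per library by a rough estimate, and no read counts are used here. In bulk RNA, fewer cells of a kind and less RNA per cell cannot be told apart.

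Differences are given on the log2(RPKM + 1) scale, and called means an adjusted p under 0.05 from limma's moderated test over the 14281 genes that averaged 1 RPKM or more, with Benjamini-Hochberg adjustment. Against NC, none of the 63 factors was called for the mean of the 3 RPL siRNAs, where 0.168% of all tested genes were called (0.105% higher and 0.0630% lower). The lowest adjusted p of a member was 0.0721. In simulated data with 200 of 14281 genes changed, this comparison recovered 6% of changes of 1 and 31% of changes of 2 on the log2 scale. Such shares depend on how many genes change, and they do not give the power in these data. The lack of called members does not show that their levels were unchanged. At an unadjusted p under 0.05, 12 members were higher and 6 lower, or 18 of 63, where 24.6% of all tested genes were past that level. The median difference of the members was 0.09, beside 0.10 over all tested genes. Single siRNAs gave no called member either. The background was 0.00700% for RPL9, 0.0140% for RPL17 and 0% for RPL27, and 15, 12 and 14 members had an unadjusted p under 0.05, where 20.4%, 15.7% and 16.7% of all genes had one. Leaving out 1 NC library leaves the single NC library of the other line, which is then assumed to vary as the RPL siRNA libraries do. Counts of called members from those fits are therefore not read as results. The line differences given below carry the same assumption for both NC libraries, and their p values hold no spread between NC libraries. Leaving out any one RPL siRNA library gave 0 called members for the mean of the siRNAs.

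Direction could still be followed library by library. Of the 62 members, 16 were above NC in all 6 RPL siRNA libraries, where 18.0% of all tested genes were, and 6 were below NC in all 6, where 13.0% were. After removal of the length trend these counts were 8 and 7. EIF1AD, EIF2B4, EIF3J, EIF4A2 and EIF4G2 were above NC in all 6 either way, and EEFSEC, EIF2S2, EIF4A3, EIF4EBP1 and EIF5A were below it either way.

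Within a line, where each siRNA is 1 library against 1 and no test is possible, HCT116 members lay more often slightly above NC than below, 43, 45 and 46 of 63 under RPL9, RPL17 and RPL27 siRNA. Differences of at least 1.5-fold were seen for 8 members higher and 3 lower under RPL9 siRNA in HCT116, where 16.3% and 17.4% of all genes passed that size. Under RPL17 siRNA 6 were higher and 3 lower (12.7% and 15.0% of all genes), and under RPL27 siRNA 4 were higher and 4 lower (14.4% and 15.5%). The median member was 0.22, 0.19 and 0.18 above NC under RPL9, RPL17 and RPL27 siRNA, beside 0.01, -0.00 and 0.02 for all tested genes. In HT29, 15 members were higher and 11 lower by that size under RPL9 siRNA (34.8% and 22.7% of all genes), 13 and 17 under RPL17 siRNA (35.8% and 20.6%) and 13 and 14 under RPL27 siRNA (35.6% and 21.0%). The HT29 member medians were 0.10, -0.09 and -0.00, where all tested genes had 0.17, 0.20 and 0.19, and median centring moved those medians of all genes to -0.24, -0.23 and -0.24. With the length trend removed, 6 members were higher and 10 lower in HT29 under RPL9 siRNA (24.7% and 25.1% of all genes), 6 and 11 under RPL17 siRNA (23.0% and 24.3%) and 7 and 12 under RPL27 siRNA (22.9% and 24.1%).

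**Figure D1:**
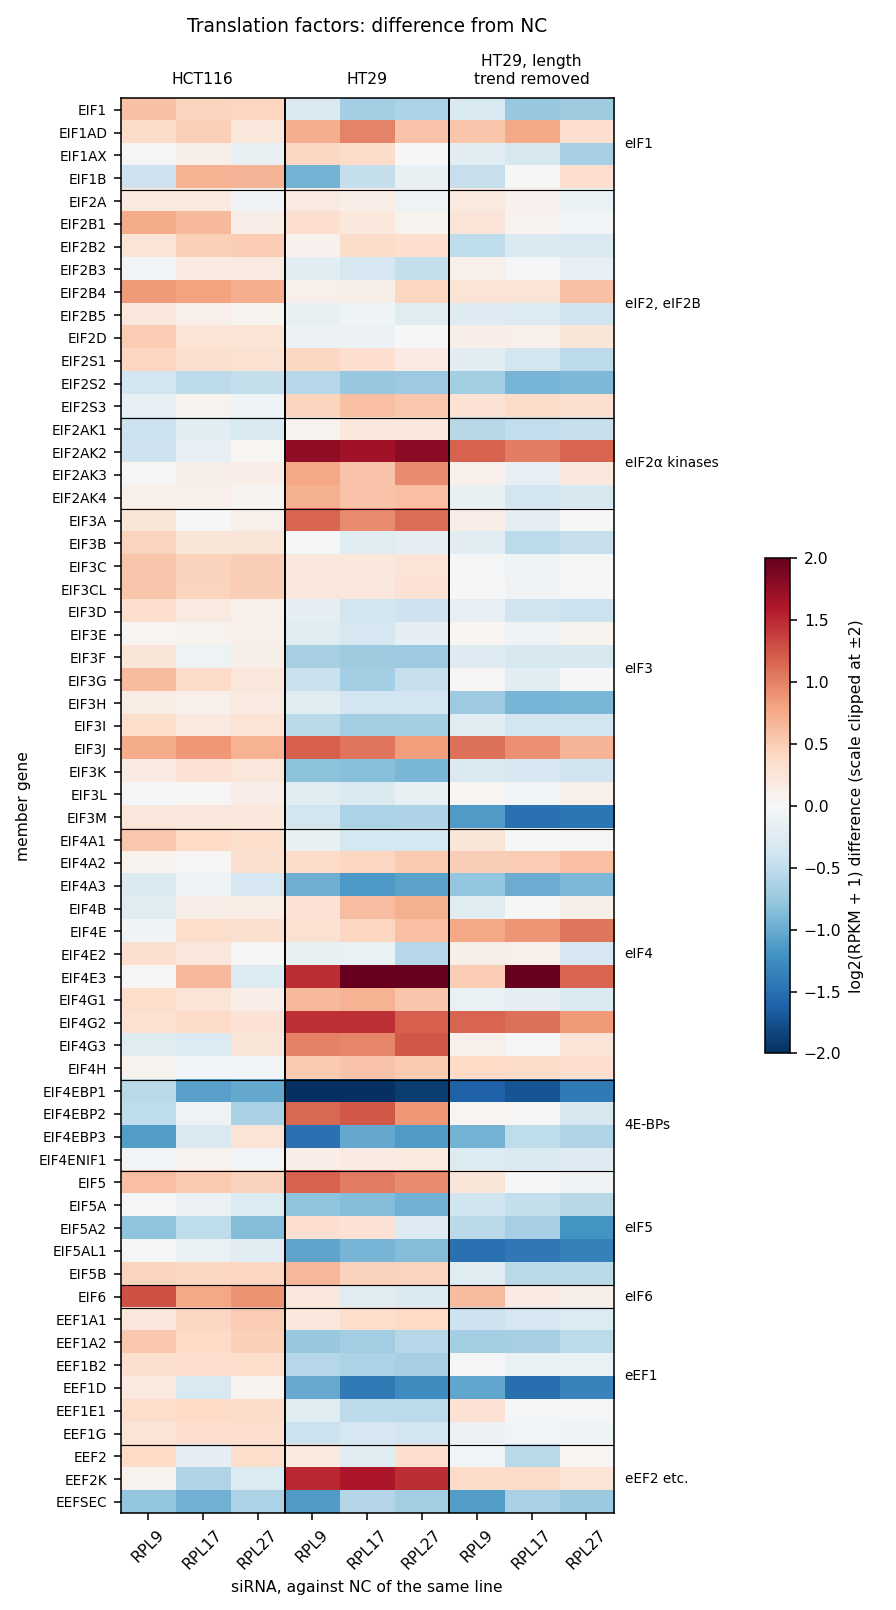
Difference from NC of the same line on the log2(RPKM + 1) scale (colour, clipped at ±2) for 62 members (rows, by role) under each RPL siRNA (columns), in HCT116, in HT29 and in HT29 with each library's length trend removed. Red is higher than NC and blue lower: EIF3J is red and EIF4EBP1 blue in every column, while most eIF3 and eEF1 rows are pale red in HCT116 and blue in HT29 as deposited.

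In the eIF1 group, which governs scanning and the choice of start codon, 2 of 4 printed members had a positive mean difference from NC, with a median of 0.05. EIF1AD, named for its eIF1A-like domain, had 286, 311 and 259 RPKM under RPL9, RPL17 and RPL27 siRNA in HCT116, against 222 under NC, and 202, 243 and 181 RPKM in HT29, against 122 under NC. Each RPL siRNA value lay above the NC value of its line. Its mean difference was 0.56 ± 0.18 (SE; adjusted p = 0.148, limma). EIF1 itself, which keeps the small subunit from settling on a wrong start codon, had 2561, 2329.9 and 2308 RPKM under RPL9, RPL17 and RPL27 siRNA in HCT116, against 1705 under NC, and 2461, 1882 and 1942 RPKM in HT29, against 3000.4 under NC. The directions were opposite in the lines, and the HCT116 effect minus the HT29 effect was 1.02 ± 0.23 (SE; adjusted p = 0.0169, limma interaction). EIF1AX, the scanning factor eIF1A, was -0.04, 0.12 and -0.16 from NC in HCT116 and 0.41, 0.36 and -0.00 in HT29. EIF1B, a paralog of EIF1, had 119, 260.3 and 257 RPKM under RPL9, RPL17 and RPL27 siRNA in HCT116, against 160.1 under NC, and 101, 139.6 and 176 RPKM in HT29, against 196 under NC, so RPL9 siRNA gave its lowest value in both lines.

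The eIF2 and eIF2B group carries the initiator tRNA and recharges eIF2 with GTP. Its 10 members had a median difference from NC of 0.19, and 4 were above NC and 1 below it in all 6 RPL siRNA libraries. With the length trend removed, 2 were above NC and 1 below it in all 6. The one below was EIF2S2, the beta subunit of eIF2. It had 2607, 2344 and 2434 RPKM under RPL9, RPL17 and RPL27 siRNA in HCT116, against 3385 under NC, and 3223, 2843 and 2894 RPKM in HT29, against 4793 under NC. In both lines all 3 RPL siRNA values lay below NC. The difference was -0.57 ± 0.13 (SE; adjusted p = 0.0935, limma), and with the length trend removed it was -0.64 and passed the threshold (adjusted p = 0.0395, limma). The other subunits did not share this in the deposited values. EIF2S1 is the alpha subunit, whose phosphorylation shuts off initiation. It was 0.43, 0.32 and 0.30 above NC in HCT116 and 0.42, 0.33 and 0.17 in HT29. With the length trend removed, EIF2S1 was no longer above NC in every library, with values from -0.52 to 0.48. The gamma subunit EIF2S3 was -0.16, 0.07 and -0.09 from NC in HCT116 and 0.45, 0.61 and 0.54 in HT29.

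Among the exchange factor subunits, EIF2B4 (delta) had 778, 757 and 715 RPKM under RPL9, RPL17 and RPL27 siRNA in HCT116, against 433 under NC, and 449.6, 457 and 567 RPKM in HT29, against 419.6 under NC. The HCT116 values were all well above NC and those of HT29 only slightly so. EIF2B1 (alpha) and EIF2B2 (beta) were above NC in all 6 libraries as well, by 0.07 to 0.74 and 0.08 to 0.51. This did not hold with the length trend removed, where their lowest values were -0.05 and -0.50. EIF2B3 (gamma) and EIF2B5 (epsilon, the catalytic subunit) were below NC in all 3 HT29 libraries, at -0.48 to -0.09. EIF2D, which can start or recycle ribosomes outside the main pathway, was 0.50, 0.28 and 0.27 from NC in HCT116 and -0.11, -0.11 and 0.01 in HT29, and EIF2A, which can also bind initiator tRNA, 0.20, 0.19 and -0.06 in HCT116 and 0.18, 0.13 and -0.10 in HT29.

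The 4 eIF2 alpha kinases, each of which slows initiation in answer to another stress, had a median difference of -0.05 in HCT116 and 0.70 in HT29. The HT29 median was -0.11 once the length trend was removed. EIF2AK2 (PKR), the kinase that senses double-stranded RNA, had 655, 775 and 889 RPKM under RPL9, RPL17 and RPL27 siRNA in HCT116, against 869 under NC, and 710.2, 667 and 726 RPKM in HT29, against 207 under NC. The HT29 NC library alone was low, and the 7 other libraries lay between 655 and 889 RPKM. The HCT116 effect minus the HT29 effect was -1.94 ± 0.25 (SE; adjusted p = 0.00196, limma interaction) and -1.26 with the length trend removed (adjusted p = 0.025, limma). EIF2AK4 (GCN2), which senses uncharged tRNA, was 0.09, 0.10 and 0.05 from NC in HCT116 and 0.72, 0.57 and 0.61 in HT29, and EIF2AK3 (PERK), the kinase of the endoplasmic reticulum, 0.03, 0.12 and 0.13 and 0.78, 0.58 and 0.94. Both HT29 sets became -0.14, -0.37 and -0.32 and 0.11, -0.17 and 0.22 without the length trend. EIF2AK1, the kinase that responds to haem, was below NC in HCT116 (-0.43, -0.22 and -0.31).

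eIF3 is the large scaffold on the small subunit. All 14 eIF3 genes had a mean difference above 0 in HCT116, with a median of 0.23, and 4 of 14 had one in HT29, with a median of -0.29. The HT29 median depended on the scaling, at -0.18 with the length trend removed (3 of 14 above 0), -0.09 after quantile normalization (6 of 14) and -0.71 after median centring (2 of 14). In 8 of the 14, all 3 HCT116 libraries were above NC and all 3 HT29 libraries below it, against 8.67% of all tested genes with that pattern. EIF3A, the largest subunit and the one on which the others assemble, was instead well above NC in HT29 alone, at 0.25, -0.01 and 0.10 in HCT116 and 1.17, 0.95 and 1.11 in HT29. Without the length trend its HT29 values were 0.13, -0.19 and 0.00, and its line difference was 0.18, where it was -0.97 as deposited. The subunits EIF3E (0.05, 0.06 and 0.10 in HCT116, -0.24, -0.33 and -0.20 in HT29) and EIF3K (0.17, 0.30 and 0.23 and -0.81, -0.84 and -0.92) had the pattern of the 8, although the line difference of EIF3E was -0.49 after quantile normalization. EIF3C and EIF3CL, near-identical copies whose reads could not be told apart, were both above NC in all 6 libraries, by 0.21 to 0.55. With the length trend removed, their lowest values were -0.08 and -0.07.

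EIF3J, a loosely bound subunit that acts in the decoding centre of the small subunit and in its recycling, was the member with the lowest p in every comparison with NC. It had 1075, 1165 and 1033 RPKM under RPL9, RPL17 and RPL27 siRNA in HCT116, against 641 under NC, and 1709, 1562 and 1324 RPKM in HT29, against 743 under NC. Each RPL siRNA library lay above both NC libraries, at 161% to 230.1% of the NC of its own line. The mean difference was 0.90 ± 0.15 (SE; adjusted p = 0.0721, limma). It passed the threshold with the length trend removed, at 0.84 (adjusted p = 0.0222, limma). Without the HT29 NC library it was the HCT116 difference of 0.76, which rests on a single NC library. In HCT116 the next eIF3 gene by size was EIF3C, at 0.50.

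**Figure D2:**
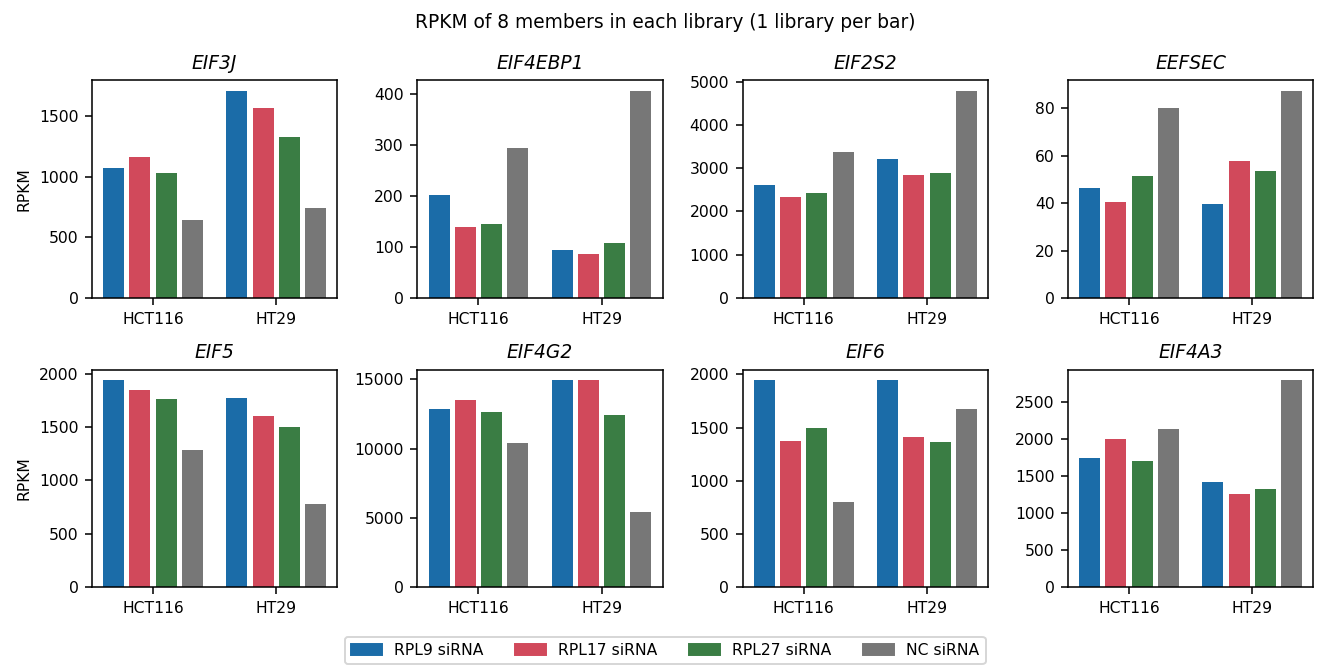
RPKM (vertical axis, from 0) of 8 members in each of the 8 libraries, 1 library per bar, with RPL9, RPL17 and RPL27 siRNA left of NC, in HCT116 and then HT29. EIF3J and EIF5 bars lie above the NC bar of their line and EIF4EBP1, EIF2S2, EEFSEC and EIF4A3 bars below it, while EIF6 lies above NC in HCT116 only, except under RPL9 siRNA in HT29 (1944 against 1671 RPKM).

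The eIF4 factors bring the message to the ribosome. Their 11 printed members had a median difference of 0.29 from NC. The helicases that unwind the 5' end, EIF4A1 and EIF4A2, differed: EIF4A1 was 0.54, 0.39 and 0.35 from NC in HCT116 and -0.14, -0.36 and -0.36 in HT29, while EIF4A2 was 0.07, 0.03 and 0.32 and 0.38, 0.43 and 0.52. EIF4A3, their relative in the exon junction complex, had 1739, 1998 and 1699.5 RPKM under RPL9, RPL17 and RPL27 siRNA in HCT116, against 2135 under NC, and 1421, 1260.2 and 1331 RPKM in HT29, against 2796 under NC. All 6 values were below both NC values, and further below in HT29. The line difference was 0.83 ± 0.18 (SE; adjusted p = 0.0169, limma interaction), and 0.64 and not called with the length trend removed (adjusted p = 0.0963, limma). The cofactors of the helicase, EIF4B and EIF4H, were -0.25, 0.13 and 0.14 and 0.08, -0.05 and -0.05 from NC in HCT116, and 0.29, 0.61 and 0.71 and 0.52, 0.56 and 0.52 in HT29.

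EIF4G2 (DAP5), a scaffold that lacks the site for eIF4E, had 12829.6, 13541 and 12667 RPKM under RPL9, RPL17 and RPL27 siRNA in HCT116, against 10388 under NC, and 14959, 14950.1 and 12403 RPKM in HT29, against 5429 under NC. All 6 values lay above both NC values, and the difference was 0.85 ± 0.24 (SE; adjusted p = 0.132, limma). The classical scaffold EIF4G1 was 0.35, 0.27 and 0.13 above NC in HCT116 and 0.66, 0.69 and 0.55 in HT29. With the length trend removed, its 6 values ran from -0.30 to 0.41. The related EIF4G3 was at -0.24, -0.27 and 0.25 in HCT116 and at 1.00, 0.98 and 1.24 in HT29. Its HT29 values were 0.10, -0.02 and 0.26 without the length trend. EIF4E, the cap-binding protein, was -0.07, 0.36 and 0.32 in HCT116 and 0.31, 0.43 and 0.60 in HT29. EIF4E3, a relative of it, had 35.8, 55.6 and 28.8 RPKM under RPL9, RPL17 and RPL27 siRNA in HCT116, against 35.03 under NC, and only 3.39, 12.2 and 6.27 RPKM in HT29, against 0.569 under NC, where the NC value lay below 1 RPKM.

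The eIF4E-binding proteins hold the cap-binding protein away from the scaffolds until mTOR phosphorylates them. EIF4EBP1 had 201, 139 and 145 RPKM under RPL9, RPL17 and RPL27 siRNA in HCT116, against 294 under NC, and 93.3, 87.1 and 108 RPKM in HT29, against 406 under NC. The 6 RPL siRNA values lay below both NC values, at 47.1% to 68.4% of NC in HCT116 and 21.5% to 26.6% in HT29. The mean difference of -1.48 ± 0.31 was the widest of all members below NC (SE; adjusted p = 0.0927, limma), and it passed the threshold with the length trend removed, at -1.25 (adjusted p = 0.0334, limma). Its line difference was 1.19 ± 0.36 (SE; adjusted p = 0.0484, limma interaction), with the wider differences in HT29, and 0.67 and not called with the length trend removed (adjusted p = 0.275, limma). EIF4EBP2 behaved otherwise, with 42.1, 55.99 and 38.02 RPKM under RPL9, RPL17 and RPL27 siRNA in HCT116, against 60.2 under NC, and 72.6, 76.9 and 59.3 RPKM in HT29, against 32.1 under NC. Its HT29 differences were 1.15, 1.24 and 0.86 as deposited and 0.04, 0.03 and -0.32 without the length trend. EIF4EBP3, whose gene can be read through from its neighbour ANKHD1, was -1.11, -0.31 and 0.27 from NC in HCT116 and -1.49, -1.02 and -1.13 in HT29, and EIF4ENIF1, which carries eIF4E into the nucleus, -0.06, 0.08 and -0.06 and 0.13, 0.16 and 0.19.

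In the eIF5 group, EIF5, which makes eIF2 hydrolyse its GTP at the start codon, had 1942, 1847 and 1761 RPKM under RPL9, RPL17 and RPL27 siRNA in HCT116, against 1284 under NC, and 1769, 1606 and 1504 RPKM in HT29, against 784 under NC. All 6 values were above both NC values, at a difference of 0.79 ± 0.16 (SE; adjusted p = 0.09, limma). In HT29 the differences were 0.24, 0.01 and -0.06 under RPL9, RPL17 and RPL27 siRNA once the length trend was removed. EIF5B, the GTPase that joins the subunits, was 0.45, 0.42 and 0.42 above NC in HCT116 and 0.67, 0.46 and 0.44 in HT29, with -0.24, -0.54 and -0.53 in HT29 without the length trend. EIF5A, the hypusine-bearing factor that helps the ribosome past difficult peptide bonds, had 5184, 4859 and 4358 RPKM under RPL9, RPL17 and RPL27 siRNA in HCT116, against 5284 under NC, and 3578, 3409.7 and 3206 RPKM in HT29, against 6233 under NC. The HCT116 values were close to NC and the HT29 values clearly lower, and the line difference was 0.73 ± 0.17 (SE; adjusted p = 0.0187, limma interaction). Its HT29 differences were -0.39, -0.48 and -0.55 without the length trend, and the line difference of 0.31 was not called (adjusted p = 0.297, limma). Its paralog EIF5A2 was -0.81, -0.51 and -0.87 from NC in HCT116 and 0.34, 0.29 and -0.26 in HT29, and the near-identical copy EIF5AL1, which may hold EIF5A reads, was at 2.75 to 6.75 RPKM throughout.

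EIF6 had 1949, 1372 and 1500.1 RPKM under RPL9, RPL17 and RPL27 siRNA in HCT116, against 803 under NC, and 1944, 1417 and 1364 RPKM in HT29, against 1671 under NC. The HCT116 values were 1.71-fold to 2.43-fold of NC, the widest positive mean difference of any member in that line, while the HT29 values lay on both sides of NC. The difference was 0.44 ± 0.26 over both lines (SE; adjusted p = 0.319, limma). Without the HT29 NC library it was the HCT116 difference of 0.98, which rests on a single NC library. The line difference of 1.09 ± 0.35 did not pass the threshold (SE; adjusted p = 0.0596, limma interaction). With the length trend removed, EIF6 was above NC in HT29 too, by 0.63, 0.16 and 0.11 under RPL9, RPL17 and RPL27 siRNA.

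Of the 6 eEF1 genes, 5 had a mean difference above 0 in HCT116 (median 0.35) and 1 in HT29 (median -0.52). The exception in HT29 was EEF1A1, the main factor that delivers aminoacyl-tRNA, which has many processed pseudogenes. It had 94445, 106552 and 113695 RPKM under RPL9, RPL17 and RPL27 siRNA in HCT116, against 80353 under NC, and 107327, 118779.7 and 122297 RPKM in HT29, against 92870.1 under NC. The 6 values exceeded both NC values, at a difference of 0.35 ± 0.10 (SE; adjusted p = 0.13, limma). Once the length trend was removed, EEF1A1 lay below NC in all 3 HT29 libraries, at -0.41, -0.33 and -0.27, and the HT29 median of the eEF1 genes was -0.22. EEF1A2, the form of muscle and neurons, had 1706, 1539 and 1632 RPKM under RPL9, RPL17 and RPL27 siRNA in HCT116, against 1169 under NC, and 959, 1001 and 1096 RPKM in HT29, against 1624 under NC. It was above NC in 3 of 3 HCT116 libraries and below it in 3 of 3 HT29 libraries, with a line difference of 1.15 ± 0.17 (SE; adjusted p = 0.00357, limma interaction) that was 1.10 without the length trend (adjusted p = 0.0123, limma). The exchange factor subunits that recharge eEF1A also had positive line differences, although EEF1D was 0.20, -0.30 and 0.07 from NC within HCT116: EEF1B2 had a line difference of 0.96 ± 0.11 (SE; adjusted p = 0.00145, limma interaction), EEF1D of 1.21 and EEF1G of 0.68. EEF1E1, a part of the multi-synthetase complex, had 0.80. EEF1D was still called without the length trend, at 1.31 (adjusted p = 0.0447, limma), while EEF1B2 at 0.40, EEF1G at 0.39 and EEF1E1 at 0.22 were not (adjusted p = 0.0942, 0.0974 and 0.613, limma). EEF1G was at -0.06 after quantile normalization.

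EEF2, which moves the ribosome along by 1 codon, had 22911, 15332 and 22309 RPKM under RPL9, RPL17 and RPL27 siRNA in HCT116, against 17444 under NC, and 18062, 13359.7 and 19876 RPKM in HT29, against 15772 under NC. In both lines RPL17 siRNA lay below NC and the other siRNAs above it. EEF2K, the kinase that inhibits eEF2, had 284, 178 and 223 RPKM under RPL9, RPL17 and RPL27 siRNA in HCT116, against 271 under NC, and 187, 202 and 184 RPKM in HT29, against 65.3 under NC, with the HT29 NC value below all others. Its HT29 differences were 1.51, 1.61 and 1.48 as deposited and 0.38, 0.39 and 0.28 without the length trend. EEFSEC, which brings selenocysteine tRNA to the ribosome, had 46.5, 40.6 and 51.6 RPKM under RPL9, RPL17 and RPL27 siRNA in HCT116, against 80.4 under NC, and 39.5, 57.8 and 53.7 RPKM in HT29, against 87.5 under NC. The 6 RPL siRNA values all lay below both NC values, at a difference of -0.80 ± 0.23 (SE; adjusted p = 0.131, limma).

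The line difference of the RPL siRNA effect (HCT116 effect minus HT29 effect) was called for 25 of the 63 members, where 22.9% of all tested genes were called. The test was the limma interaction, at an adjusted p under 0.05. With 1 NC library per line, its p values hold only the spread among the RPL siRNAs of a line. The NC libraries are assumed to vary as those do. An unadjusted p under 0.05 was reached by 36 members and by 36.0% of all genes. Of the 25, 16 were positive (6.11% of all genes) and 9 negative (16.8%), and the median member was at 0.26 against -0.19 for all genes. The positive ones included 6 eIF3 and 5 eEF1 genes, and the negative ones EIF2AK2, EEF2K (-1.80), EIF4EBP2 (-1.50), EIF4G3 (-1.16) and EIF4G2 (-1.05). The split went with transcript length, as the HT29 NC library does: the positive members had a median length of 1388.5 bases and the negative ones of 5499 bases. Across the 62 members the rank correlation of the line difference with length was -0.75, that of the HT29 difference from NC 0.69 and that of the HCT116 difference -0.15, as a description over genes that share these libraries. Of 22 members under 2000 bases, 19 were lower than NC in HT29 and 18 higher in HCT116. Of 19 members of 4000 bases or more, 18 were higher in HT29 and 12 higher in HCT116. With the length trend removed 10 members were called, where 7.90% of all tested genes were, and 6 of the 10 were among the 25. These were EIF3M (1.63), EEF1D (1.31), EEF1A2, EIF1 (1.10), EIF3H (1.04), EIF5B (0.92), EEF1A1 (0.77), EIF3C (0.57) and its copy EIF3CL on the positive side, and EIF2AK2 on the negative. Since HT29 has 1 NC library, the siRNA and that library's length trend cannot be told apart in the deposited values. Without the HT29 RPL17 library 14 members were called, and without HT29 RPL27 16.

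**Figure D3:**
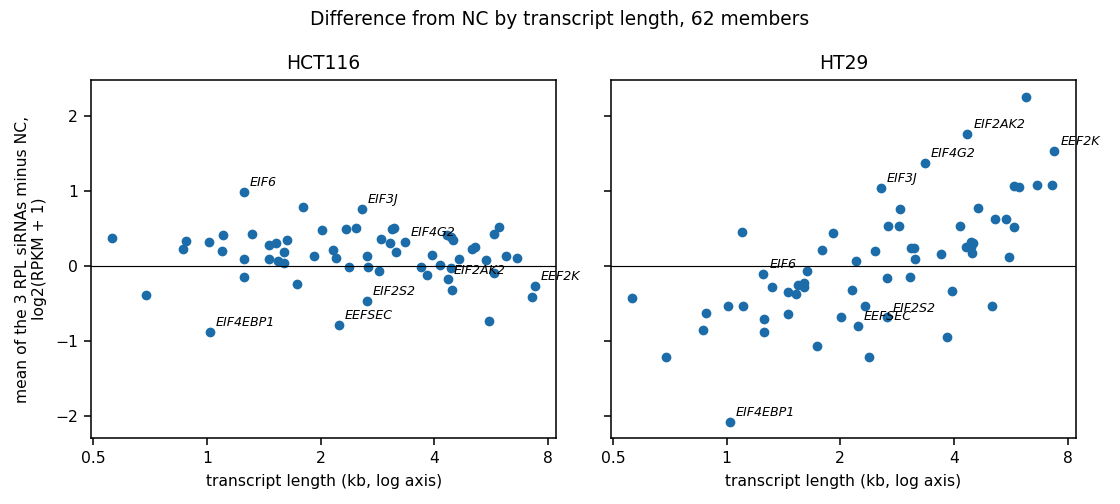
Mean of the 3 RPL siRNA libraries minus NC on the log2(RPKM + 1) scale against transcript length (kb, log axis) for 62 members, 1 point per gene, in HCT116 and HT29. HCT116 points show little slope (rank correlation -0.15) and HT29 points climb with length (0.69).

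The RPL siRNAs were set against each other in the 6 RPL siRNA libraries alone, which leaves both NC libraries out. RPL9 siRNA, set against the average of RPL17 and RPL27 siRNA, gave 3 called members, 1 higher and 2 lower, where 0.707% of all tested genes were called. RPL17 siRNA gave 1 lower (0.420% of all genes) and RPL27 siRNA 1 higher (1.25%). The order of the 3 siRNAs was the same in both lines for 17 of 62 members, or 27.4%, beside 30.4% of all tested genes. The RPL9 count was 0 when any one of the 6 libraries was left out. The RPL17 count was 0 without HCT116 RPL17, HCT116 RPL27, HT29 RPL17 or HT29 RPL27, and the RPL27 count 2 without either RPL9 library and 0 without any of the others. None of these 5 calls was made without limma's trend or without the filter on low values.

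Under RPL9 siRNA, EIF6 was 0.46 ± 0.06 higher than under the other RPL siRNAs (SE; adjusted p = 0.0457, limma), with 0.44 in HCT116 and 0.48 in HT29. In RPKM this was 1949 under RPL9 siRNA against 1372 and 1500.1 under RPL17 and RPL27 siRNA in HCT116, and 1944 against 1417 and 1364 in HT29. EIF4B differed by -0.38 ± 0.04 (SE; adjusted p = 0.0323, limma), with 6833 RPKM under RPL9 siRNA against 8875 and 8947 under RPL17 and RPL27 siRNA in HCT116 and 6948 against 8686 and 9274 in HT29. EEF1A1 differed by -0.19 ± 0.03 (SE; adjusted p = 0.0439, limma), and its RPL9 value was the lowest of the 3 RPL siRNA values in both lines.

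EEF2 separated RPL17 siRNA from the others. It was lower under RPL17 siRNA, at -0.53 ± 0.04 (SE; adjusted p = 0.0305, limma), with -0.56 in HCT116 and -0.50 in HT29, and 0.30 ± 0.04 higher under RPL27 siRNA (SE; adjusted p = 0.0453, limma). Both contrasts use the same libraries. Its values under RPL17 siRNA were below every other library of the same line, NC included.

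Members that did not pass the threshold had values of similar size. EEF1D, a subunit of the eEF1 exchange factor, was at 0.32 under RPL9 siRNA and -0.36 under RPL17 siRNA, with the same order of the siRNAs in both lines. EIF1B was at -0.87 under RPL9 siRNA and 0.55 under RPL27 siRNA, and EIF3B, a core subunit, at 0.20 and EIF4A1 at 0.19 under RPL9 siRNA. EIF4E2, a cap-binding repressor, was at -0.35 and EIF2A at -0.25 under RPL27 siRNA. EIF4E3 was at 1.00 under RPL17 siRNA, on low values in HT29. When the NC libraries entered the fit, no member was called for any of the 3 siRNAs.

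EEF1A1, EIF4B and EEF2 are messages with a TOP start, and EIF6 is not counted among them, so the region around the annotated start is shown for these 4. Each window covers the 40 bases before the start and the first 20 from it on the gene's strand, from RefSeq (GRCh38.p14). The capitals mark a C followed by at least 4 bases that are each C or T, where such a run begins within 10 bases of the start. The windows are chr6:73521013-73521072 (minus strand) for EEF1A1, chr12:53006416-53006475 (plus) for EIF4B, chr19:3985444-3985503 (minus) for EEF2 and chr20:35284698-35284757 (minus) for EIF6.
EEF1A1: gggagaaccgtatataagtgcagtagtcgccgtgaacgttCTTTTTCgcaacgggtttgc
EIF4B: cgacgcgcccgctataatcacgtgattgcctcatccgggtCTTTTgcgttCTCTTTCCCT
EEF2: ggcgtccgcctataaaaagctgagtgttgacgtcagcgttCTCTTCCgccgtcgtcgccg
EIF6: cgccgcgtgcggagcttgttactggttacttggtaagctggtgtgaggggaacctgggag
EEF1A1, EEF2 and EIF4B each have a run at the annotated start, of 7, 7 and 5 bases, EIF4B has another from base 11 that goes on past the window, and EIF6 has none in this window. Among the 51 members with a promoter in the table, 11 (21.6%) have such a run exactly at the start, beside 4.04% of 27305 promoters, and 22 (43.1%) have one within 10 bases, beside 33.3%. Those 27305 promoters were not limited to genes expressed here, as the members are. Of the 6 members with TOP messages that have a promoter there, 4 have a run at the start. EEF1A1, EIF4B and EEF2 did not move as one between the siRNAs: EEF1A1 and EIF4B were lowest under RPL9 siRNA, and EEF2 under RPL17 siRNA.

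**Figure D4:**
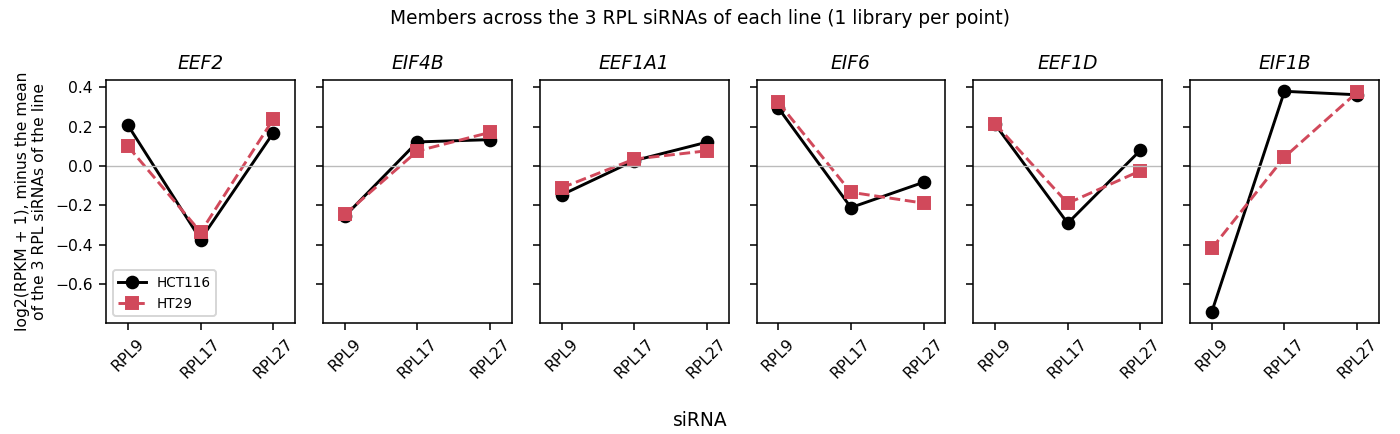
log2(RPKM + 1) minus the mean of the 3 RPL siRNA libraries of the line, for 6 members, with circles and solid lines for HCT116 and squares and dashed lines for HT29, 1 library per point. EEF2 is lowest under RPL17 siRNA and EIF4B and EEF1A1 are lowest under RPL9 siRNA in both lines, while EIF6 and EEF1D are highest under RPL9 siRNA; EEF1D and EIF1B did not pass the threshold.

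The lines themselves were compared over the 3 RPL siRNAs, without NC. Of the 63 members 33 were called, 32 without the Y-linked one, where 22.9% of all tested genes were, and 40 members had an unadjusted p under 0.05, where 37.7% of all genes had one. Higher in HCT116 were 26 (11.1% of all genes) and lower 7 (11.7%), and the median member was 0.18 higher in HCT116, beside 0.04 for all genes. Among the members with values, EIF4E3 had the widest difference, 2.40 ± 0.28 (SE; adjusted p = 0.00382, limma). It had 35.8, 55.6 and 28.8 RPKM in HCT116 and 3.39, 12.2 and 6.27 RPKM in HT29 under RPL9, RPL17 and RPL27 siRNA. The ranges of the lines did not overlap. EIF4EBP1 was 0.73 ± 0.16 higher in HCT116 (SE; adjusted p = 0.0253, limma), while under NC it was lower there (294 RPKM in HCT116 and 406 RPKM in HT29). The NC order rests on 1 library per line. Its HT29 value comes from the library in which short transcripts stood higher, and EIF4EBP1 has 1020 bases. Whether the order under NC differed apart from that trend was not tested. EEF1A2 was 0.67 higher (1539 to 1706 RPKM in HCT116 and 959 to 1096 RPKM in HT29), EIF2B4 0.62, EIF5A 0.50, and EIF2S1 0.46 higher. Lower in HCT116 were EIF4EBP2 (-0.62), EIF4G3 (-0.51), EIF3H (-0.48), EIF3J (-0.48), EIF2S2 (-0.28), EEF1A1 (-0.15) and EEF1G (-0.11). The eIF2 subunits were thus split, with EIF2S1 and EIF2S3 (0.20) called higher in HCT116 and EIF2S2 lower. Among the eIF3 genes EIF3C, its copy EIF3CL, EIF3D, EIF3I, EIF3G, EIF3L and EIF3A were called higher in HCT116, at 0.18 to 0.46. The count of 33 was 13 without HCT116 RPL17 and 13 without HT29 RPL17.

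**Figure D5:**
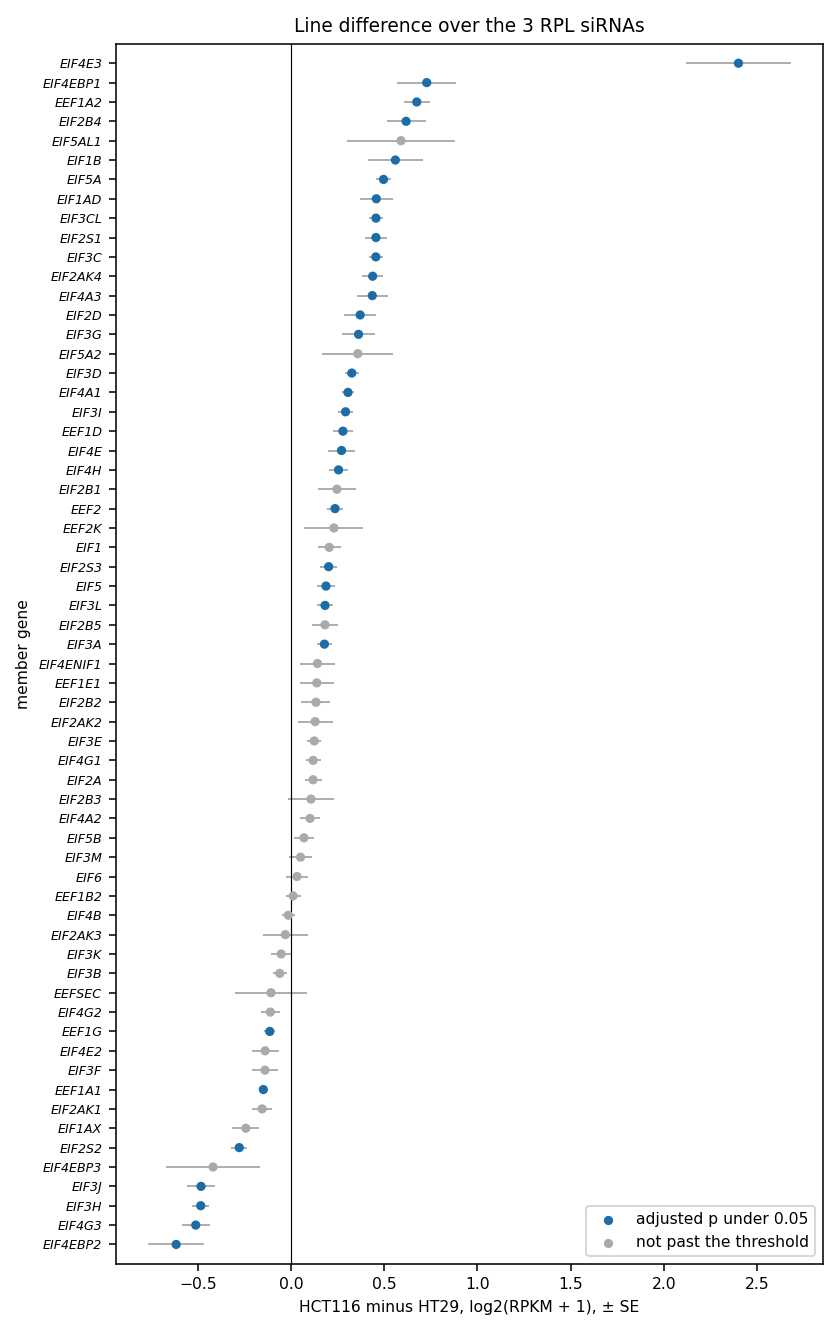
HCT116 minus HT29 on the log2(RPKM + 1) scale over the 3 RPL siRNAs, with SE bars, for 62 members in order of size (n = 3 libraries per line). Blue points have an adjusted p under 0.05, and EIF4E3 at 2.40 stands clear of the rest.

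Genes that act on or beside the factors were followed in lists that hold no member. None of their genes was called against NC for the mean of the RPL siRNAs, where 0.168% of all tested genes were. Over all tested genes the median of that comparison was 0.10, and 24.6% had an unadjusted p under 0.05. Whether a list differed from all tested genes was not tested. The 17 measured genes of termination, recycling and poly(A) binding had a median of 0.34, with 5 higher and 2 lower at an unadjusted p under 0.05. In it DDX3X, an RNA helicase, was at 1.10, ABCE1, which splits ribosomes, at 0.64, and PDCD4, an inhibitor of eIF4A, at -0.65. No gene of this list had a mean difference above 0.64 in HCT116, and the highest in HT29 was 2.03. The value of DDX3X therefore rests more on HT29 and its NC library. The median of the list was 0.18 in HCT116 and 0.21 in HT29, or -0.05 in HT29 without the length trend. The 15 genes from mTOR and the MNK kinases to eIF4 had a median of 0.34, with 5 higher and 2 lower at that level. By line the median was -0.02 in HCT116 and 0.56 in HT29, or -0.18 in HT29 without the length trend. MKNK2, which phosphorylates eIF4E, was 1.07 ± 0.16 higher (SE; adjusted p = 0.0673, limma) and the mTORC1 subunit AKT1S1 1.00, while RHEB, the activator of mTORC1, was at -0.61 ± 0.12 (SE; adjusted p = 0.0868, limma) and its inhibitor DDIT4 at -0.93. The 9 genes of eIF2 alpha phosphorylation and its targets had a median of -0.18, with 2 higher and 3 lower at that level, and of -0.38 in HCT116 and 0.06 in HT29, or -0.46 in HT29 without the length trend. CHAC1, an ATF4 target, was at -2.93 ± 0.33 (SE; adjusted p = 0.0584, limma) and DDIT3 (CHOP) at -1.13, whereas PPP1R15A (GADD34), which leads the phosphatase back to eIF2 alpha, was at 1.18. The 7 genes that modify eIF5A and eEF2 had a median of 0.25, with 1 higher and 1 lower at that level. Its median was 0.51 in HCT116 and -0.30 in HT29, or 0.07 in HT29 without the length trend. In it DHPS, the first enzyme of hypusine formation, was at -0.69 ± 0.15 (SE; adjusted p = 0.0964, limma). The 10 mitochondrial translation factors had a median of 0.27, with 1 higher and 2 lower, MTIF2 at 0.56 and TSFM at -0.70, and of 0.10 in HCT116 and 0.32 in HT29, or 0.20 in HT29 without the length trend. Against the other RPL siRNAs, RPL27 siRNA gave called values for DENR, which acts in reinitiation and recycling (-0.85 ± 0.09, SE; adjusted p = 0.0234, limma), and PABPC4, a poly(A)-binding protein (-0.46 ± 0.05, SE; adjusted p = 0.0285, limma). The members with TOP messages, 9 in number, had a median of -0.09 against NC, with 3 of 9 above 0. Within HCT116 8 of the 9 were above 0, with a median of 0.14, and within HT29 3 of 9, with a median of -0.34, or 1 of 9 and -0.19 without the length trend.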

How the data were processed

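RNA-seq was deposited for 8 libraries, 2 cell lines by 4 siRNAs. The authors' values are RPKM, 1 per gene symbol and library, per the file headers. Per the submitters' processing notes, base calling used CASAVA 1.8.2 and alignment TopHat2 2.0.9 to hg19, while how reads were counted per gene, strand included, is not given in these sources. Overlapping genes and near-identical copies (EIF3C and EIF3CL, EIF5A and EIF5AL1, EEF1A1 and its pseudogenes) are therefore uncertain.

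From these values log2(RPKM + 1) was computed. The 14281 genes averaging 1 RPKM or more were fitted with limma 3.58.1 (R 4.3.3, trend), two-sided, with Benjamini-Hochberg adjustment and a threshold of 0.05. The terms were line and siRNA over 8 libraries (3 residual degrees of freedom) for siRNAs against NC, line by any RPL siRNA for the line difference (4), and line and siRNA over the 6 RPL siRNA libraries (2) for the RPL siRNAs and for the lines. Nothing in the labels says that libraries came from separate cultures, and p values measure only the spread between lines or siRNAs. A log2 difference with 1 added understates low genes.

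The length trend of each library was removed with a spline of 5 degrees of freedom on GENCODE transcript lengths, which all 63 members and 14180 tested genes had. Named genes were members past the threshold, up to 12 each way, else those that kept 1 sign across the lines and whose smaller line difference was widest, plus a set of 17 always followed. The members, lists and tests were chosen with earlier results of these data known. Other settings were quantile normalization, median centring, pseudocounts of 0.1 and 5, a minimum mean of 5 RPKM or none, no trend, no line term, all 8 libraries, and each library left out. The fits were tested on simulated data in which 200 of 14281 genes were changed. Of changes of 1 and of 2 (log2), 6% and 31% were recovered against NC. For the line difference these shares were 1% and 24%. They were 45% and 67% for RPL9 against the other RPL siRNAs, and 38% and 73% for the lines. These shares depend on how many genes change and do not give the power in these data, where 22.9% of all tested genes were called for the line difference.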

Additional observations from a re-analysis of the deposited data

Results flagged for a closer look

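The line difference of the RPL siRNA effect was called in 25 members, where it was called in 22.9% of all tested genes. It is the HCT116 effect minus the HT29 effect on the log2 scale, by the limma interaction. Positive were EEF1D at 1.21, EIF4EBP1 at 1.19, EEF1A2 at 1.15, EIF3K at 1.09, EIF1 at 1.02, EEF1B2 at 0.96, EIF3G at 0.95, EIF3I at 0.92, EIF4A3 at 0.83, EEF1E1 at 0.80, EIF3F at 0.79, EIF3M at 0.76, EIF5A at 0.73, EIF4A1 at 0.71, EEF1G at 0.68 and EIF3H at 0.48. Negative were EIF2AK2 at -1.94, EEF2K at -1.80, EIF4EBP2 at -1.50, EIF4G3 at -1.16, EIF4G2 at -1.05, EIF3A at -0.97, EIF2S3 at -0.59, EIF2AK4 at -0.55 and EIF4H at -0.54. All of these rest on 1 NC library per line, and the HT29 one carries the length trend described above. Their p values hold only the spread among the RPL siRNAs of a line, and none between NC libraries. With that trend removed, EIF2AK2, EIF3M, EEF1D, EEF1A2, EIF1 and EIF3H were still called. EIF3M and EIF3H then had wider line differences than as deposited, and EIF5B, EEF1A1, EIF3C and EIF3CL were called only then. The removal takes 1 annotated length per gene, and whether it overcorrects some genes was not tested.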

How the results depend on the processing

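Counts of called members moved most with the NC libraries. Leaving out 1 library gave 0 to 45 members for any RPL siRNA against NC, 0 to 44 for RPL9, 0 to 46 for RPL17 and 0 to 44 for RPL27, and every count above 0 came from leaving out an NC library. It gave 14 to 24 for the line difference (RPL siRNA libraries only, since the interaction cannot be fitted without an NC library), 0 for RPL9 against the others, 0 to 1 for RPL17, 0 to 2 for RPL27 and 13 to 28 for HCT116 against HT29. With the length trend removed the counts were 3 for any RPL siRNA and 1 for RPL9 against NC, 10 for the line difference and 0 for RPL27 against the others. Without a filter on low values they were 16 for the line difference, 0 for each RPL siRNA against the others and 7 for the lines. A mean of at least 5 RPKM gave 6, 2 and 3 for RPL9, RPL17 and RPL27 against the others. Without limma's trend there were 8 for the line difference, 0 for each RPL siRNA against the others and 3 for the lines. All 8 libraries gave 0 for each RPL siRNA and 2 for the lines. A pseudocount of 0.1 and quantile normalization each gave 0 for RPL27. The cell line is the block that pairs the libraries, and without that replicate block the count was 0 for each RPL siRNA against the others. These are counts of members alone, without the share of all tested genes called under each setting. For the line difference that share was 22.9% as deposited and 7.90% with the length trend removed. Whether the members moved apart from all tested genes was not tested. The counts above 0 against NC come from fits with a single NC library and are not read as results. The cause of these changes was not tested.

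Single libraries differed from NC by at least 2-fold in 2, 1 and 1 members under RPL9, RPL17 and RPL27 siRNA in HCT116 (6.58%, 4.89% and 5.64% of all genes higher and 8.26%, 6.58% and 6.93% lower) and in 14, 11 and 10 in HT29 (22.8%, 23.0% and 23.2% higher and 12.3%, 9.75% and 9.94% lower). With the length trend removed, 16 members passed 1.5-fold under RPL9 and 17 under RPL17 siRNA in HT29.

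Some members turned direction. Without 1 NC library, EIF4A1 ranged from -0.28 to 0.43 for any RPL siRNA against NC, -0.16 to 0.56 for RPL9, -0.34 to 0.38 for RPL17 and -0.36 to 0.36 for RPL27, and EEF1A2 from -0.67 to 0.47 for any, -0.68 to 0.47 for RPL9 and -0.62 to 0.53 for RPL27. For the line difference, quantile normalization gave EIF4A1 -0.071, EIF3E -0.49 and EEF1G -0.061, and removal of the length trend gave EIF2AK4 0.41 and EIF3A 0.18. Quantile normalization ties EEF1A1 at the top of every library and so gives 0 for it under RPL9 against the others. EEF1D was at -0.0240 between the lines with all 8 libraries. Depth is known only as an estimate, which limits EIF4E3, EIF5AL1, EIF4EBP3 and EIF5A2 most.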

Other observations

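Of 7 pairs of paralogs, several differed in their values against NC. EIF4A1 minus EIF4A2 was 0.48, 0.37 and 0.03 (log2) under RPL9, RPL17 and RPL27 siRNA in HCT116 and -0.52, -0.79 and -0.88 in HT29. EEF1A1 minus EEF1A2 was -0.31, 0.01 and 0.02 in HCT116 and 0.97, 1.05 and 0.96 in HT29. EIF5A minus EIF5A2 was 0.78, 0.39 and 0.59 in HCT116 and -1.14, -1.16 and -0.70 in HT29. The gaps were wider in HT29 for these 3 pairs, but not for every pair: under RPL9 and RPL17 siRNA EIF4G1 minus EIF4G3 was 0.59 and 0.54 in HCT116 and -0.35 and -0.29 in HT29, and EIF1 minus EIF1B was 1.01 in HCT116 and 0.66 in HT29 under RPL9 siRNA. The paralogs differ in transcript length, and the part of the length trend of the HT29 NC library in these gaps was not tested.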
